A study of Mus musculus with 27 samples.

Results

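Gluconeogenesis, the making of glucose from lactate, glycerol and amino acids, was followed through 8 genes chosen by name: Pck1, Pcx, Fbp1, Slc37a4, Sds, Gpt, Got1 and Ppargc1a. All 8 were found once each among the 21848 genes of the deposited bulk RNA-seq table. The rule reads gene names and no measured value. The route is strongest in hepatocytes around the portal vein and keeps blood glucose up during fasting. Pyruvate carboxylase and phosphoenolpyruvate carboxykinase lead carbon from pyruvate to phosphoenolpyruvate, fructose bisphosphatase passes one of the irreversible steps of glycolysis in the opposite direction, and glucose 6-phosphate is finally carried into the endoplasmic reticulum for release of glucose. Glucagon and glucocorticoids raise transcription of the pathway and insulin lowers it, and the amino acid enzymes supply its carbon.

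Bulk RNA-seq covered 9 conditions with 3 libraries each. All were of primary liver cells. The labels give a C57BL/6 background for all 27 libraries and a WT genotype for all but fresh library 3, whose genotype label is MDR2-het although it is titled wild type. The methods describe healthy adult mice and name, beside wild type, reporter lines such as PDGFRα-H2B-GFP, which marks portal mesenchyme, and Rosa26-nTnG, used for cholangiocytes. Which line gave the cells of a bulk assembloid library is not stated. Freshly isolated hepatocytes were the reference. Hepatocyte organoids (HepOrgs) were grown from hepatocytes in Matrigel to passage 2 in HM-Wnt, an expansion medium, and then kept in HM-Wnt or moved to MM for 1 or 2 weeks (7 or 14 days). Both media share a basal medium with B27 and N-acetylcysteine, Wnt conditioned medium and a ROCK inhibitor. HM-Wnt alone adds gastrin, EGF, RSPO1, FGF10, FGF7, HGF, nicotinamide, CHIR9902 and A83-01. Periportal assembloids joined, in Matrigel, 10 HepOrgs with 1000 cholangiocytes from cholangiocyte organoids and either 250 (homeostatic) or 2500 (fibrotic-like) portal mesenchymal cells, and were collected after 1 or 2.5 weeks (7 or 18 days) in MM. An assembloid library is therefore a mixture of 3 kinds of cell, and in bulk samples fewer cells of a type and less RNA per cell cannot be told apart. No label says whether the 3 libraries of a condition came from separate mice or cultures, so that the p-values measure the spread between these libraries.

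Libraries held 30289364 to 65348596 counts on genes (median 43727965). Homeostatic 1-week library 2 stood apart, with 6625 genes of at least 10 counts against 11840 to 14162 in the other 26 libraries. In it 7 of the 8 genes had no count, Fbp1 had a TPM of 2.97, the summed TPM of 10 hepatocyte markers was 3720 (66852 and 103534 in the other libraries of the condition), and the cholangiocyte keratin Krt19 had a TPM of 2006. Fibrotic-like library 3 at 1 week and library 2 at 2.5 weeks also had a high Krt19 (TPM 2050 and 2734). Their hepatocyte markers summed to 13471 and 34985, with 13864 and 13901 genes of at least 10 counts, and both were kept. The tests of the 8 genes in assembloids are given with and without homeostatic 1-week library 2. Leaving it out takes a hepatocyte-poor library from the homeostatic side only. Pooled count ratios and orders of mean TPM use all libraries. Without fresh library 3 the number of genes past the threshold was the same in each of the 8 comparisons with fresh hepatocytes. The 10 hepatocyte markers had a summed TPM of 28307 to 97109 in HepOrgs and 85399 to 115296 in fresh hepatocytes.

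A TPM is a count scaled for gene length and library size. The deposited TPM uses a length close to the whole gene span, introns included, so it compares 1 gene between libraries. Levels between genes were compared on TPM recomputed with exon length. Log2 fold changes come from edgeR's quasi-likelihood fit of the counts. Their SEs are approximate: each is the absolute log2 fold change divided by the square root of the F statistic of the test. The threshold is an adjusted p under 0.05 over all genes tested. Reads of overlapping genes cannot be told apart without strand. Slc37a4 lies wholly within its overlap with Trappc4 on the other strand, Pcx overlaps Rce1 over 395 bases and Sds overlaps Plbd2 over 651 bases, so the values of these 3 genes are uncertain to that extent.

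The promoters of 3 members are shown because these genes behaved differently in culture: Pck1 was almost lost, the low Ppargc1a fell in every HepOrg condition and Fbp1 was retained in part. Each is the 250 bases before the start site in RefSeq (GRCm38.p6), 5′ to 3′ on the strand of the gene. Capitals mark the letters TGACG, the core of the cyclic AMP response element through which glucagon signalling acts, read on either strand, so that CGTCA is the same core on the other strand.
Pck1, chr2:173152823-173153072, plus strand: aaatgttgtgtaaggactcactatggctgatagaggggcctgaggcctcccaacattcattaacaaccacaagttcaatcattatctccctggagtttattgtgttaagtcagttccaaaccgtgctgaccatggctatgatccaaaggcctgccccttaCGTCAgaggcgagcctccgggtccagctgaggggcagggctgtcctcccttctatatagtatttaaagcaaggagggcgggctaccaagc
Ppargc1a, chr5:51567726-51567975, minus strand: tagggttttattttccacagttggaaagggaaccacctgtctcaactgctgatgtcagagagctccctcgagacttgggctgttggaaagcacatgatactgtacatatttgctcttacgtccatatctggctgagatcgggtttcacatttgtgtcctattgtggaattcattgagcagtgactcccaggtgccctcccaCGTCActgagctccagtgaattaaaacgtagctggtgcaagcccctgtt
Fbp1, chr13:62888283-62888532, minus strand: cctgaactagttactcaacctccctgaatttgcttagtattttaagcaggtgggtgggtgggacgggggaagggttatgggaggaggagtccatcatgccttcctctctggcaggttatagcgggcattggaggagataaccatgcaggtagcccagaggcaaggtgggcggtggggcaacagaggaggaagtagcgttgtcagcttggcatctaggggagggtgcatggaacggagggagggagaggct
The core was present in Pck1, from 90 to 86 bases before the start, and in Ppargc1a, from 49 to 45 bases before it, and was not found in the Fbp1 window. RefSeq gave 9 start sites for 6 of the 8 genes, and Sds and Gpt were not matched. The core was also found before 2 of the 3 starts of Slc37a4, and not before the starts of Pcx or Got1. Of 32851 promoters of this length in the genome, 17.8% held it. Neither TGTTTAC, a forkhead site (3.17% of promoters), nor AAAGTCC, an HNF4 site (3.58%), was found in any of the 9 windows on either strand. With a single motif found, no matches of different motifs overlap. A match of letters is a description of the sequence. The 3 promoters were picked by the changes of their genes in these data, so a link between core and change was not tested.

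On the exon-length scale, Fbp1 (1965 ± 215 TPM, SD, n = 3) and Pck1 (1640 ± 624) were the most abundant of the 8 genes in fresh hepatocytes. Sds followed at 494 ± 98.4, Slc37a4 at 311 ± 55.0, Pcx at 249.7 ± 68.9 and Gpt at 224 ± 36.0. Got1, at 65.4 ± 15.8, and Ppargc1a, at 3.86 ± 1.19, were the lowest. In all 4 HepOrg conditions Fbp1 kept the first rank, at 592 to 1937 TPM. Pck1 moved to rank 6 or 7, at 0.197 to 3.43 TPM, and Sds to rank 8, at 0.0604 to 0.176 TPM. The genes of the first rank in fresh hepatocytes thus parted in culture.

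**Figure D1:**
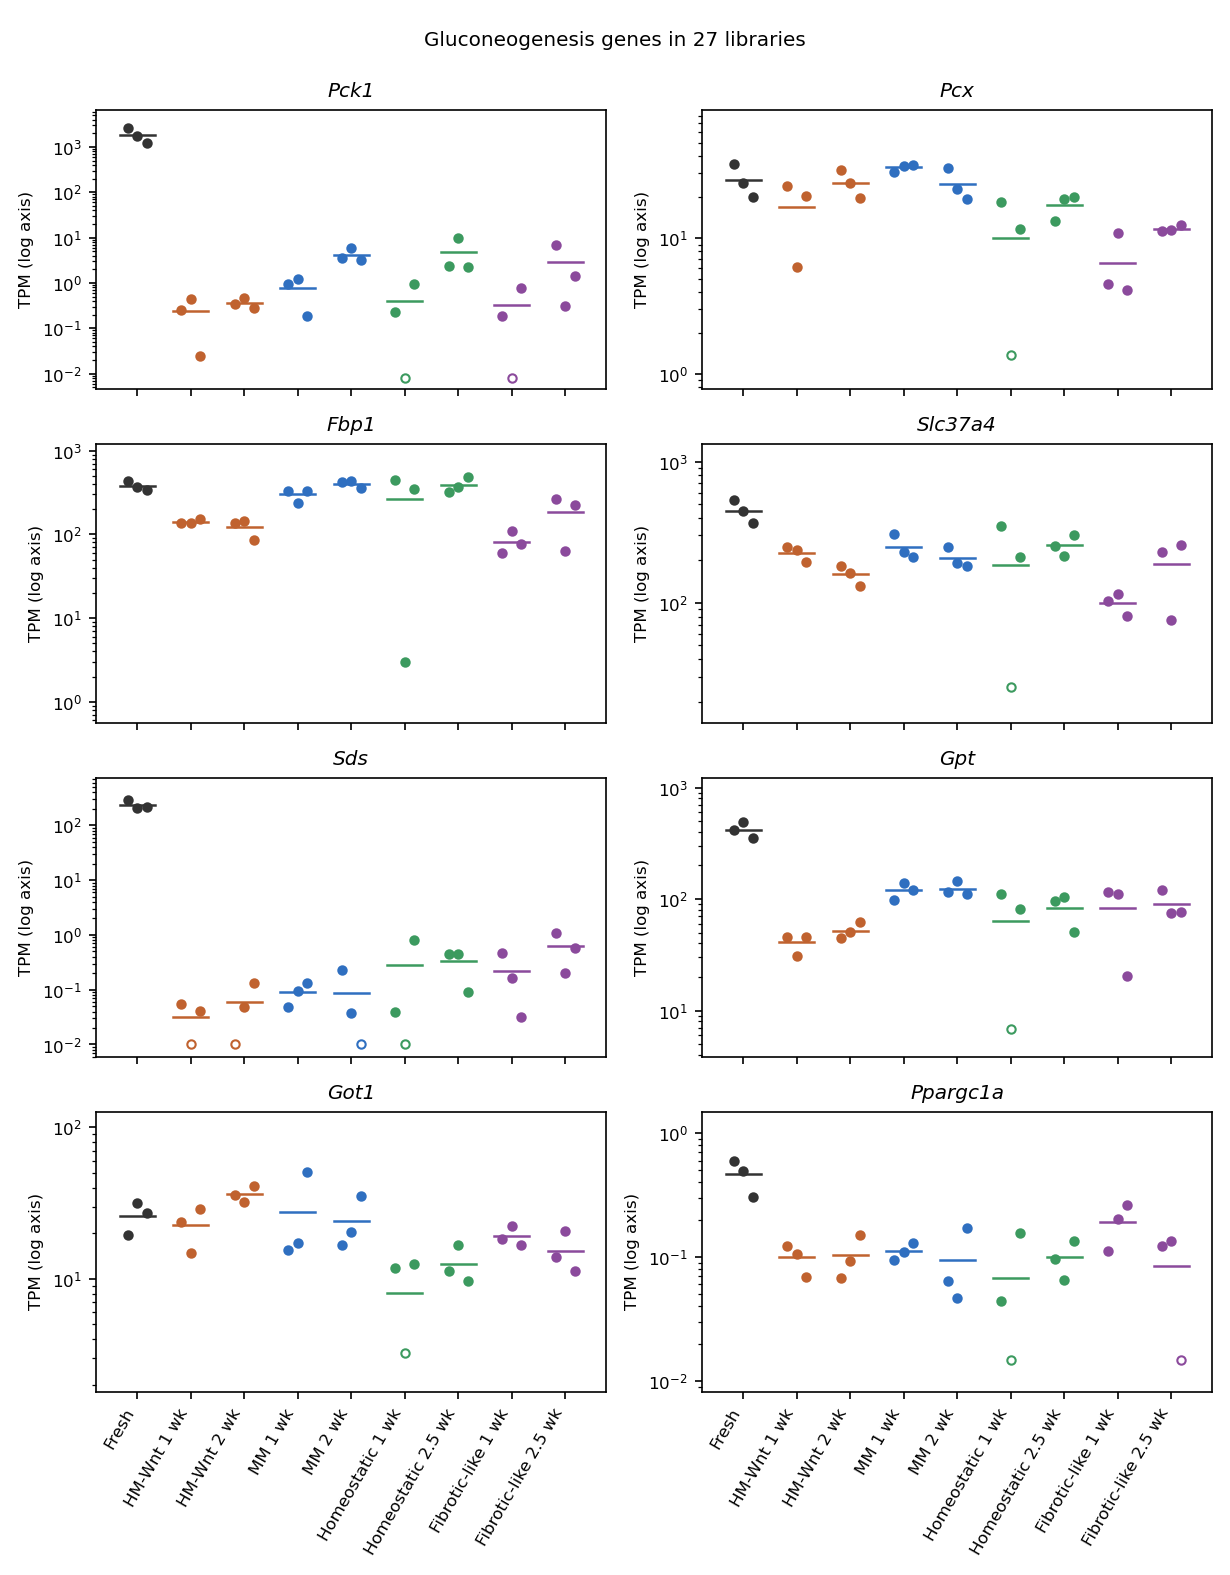
Deposited TPM of the 8 genes in each of the 27 libraries, on a log axis, by condition. Points are libraries, horizontal bars are means of 3 libraries, and open symbols at the bottom of a panel are libraries with 0 counts. Fresh hepatocytes lie above every other library for Pck1, Sds, Gpt, Slc37a4 and Ppargc1a, while Pcx, Got1 and Fbp1 overlap with cultures.

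In HepOrgs of both media, the genes of the pathway were lower than in fresh hepatocytes or did not pass the test, and none was higher. Pck1 and Sds fell to trace levels, Gpt fell 4.83-fold to 15.1-fold, Ppargc1a and Slc37a4 fell in all 4 conditions, and Fbp1 fell in 3 of them. Pcx passed the test in 1 condition and Got1 in none. In HM-Wnt 7 of 8 genes were lower at 1 week (of 13405 genes tested, 24.8% were lower and 24.9% higher) and 6 of 8 at 2 weeks (25.7% and 26.1%). In MM 6 of 8 were lower at 1 week (21.3% and 21.5%) and 5 of 8 at 2 weeks (20.0% and 19.7%). The median log2 fold change of the 8 genes was −2.33 and −2.70 in HM-Wnt and −1.94 and −1.95 in MM at 1 and 2 weeks, against 0.02, 0.03, 0.00 and −0.01 over all genes tested. Sds is in each of these counts and medians, and passed the count filter only through the fresh libraries. In a fit of all 27 libraries the counts were 3, 3, 2 and 2, made of Pck1 and Sds in all 4 conditions and Gpt in HM-Wnt only. On the log2(TPM + 1) scale 9671 genes were tested, those with a TPM of at least 1 in at least 3 libraries, against 13405 in edgeR. The median of the genes tested was higher there by 0.37 and 0.64 for HM-Wnt and by 0.46 and 0.41 for MM. Of these genes 4160, 5844, 4492 and 3816 were called higher against 1280, 1074, 911 and 899 lower (edgeR 3341, 3500, 2883 and 2641 against 3325, 3442, 2855 and 2680). Of 10 hepatocyte markers 3, 6, 5 and 6 were lower and 1, 0, 0 and 1 higher in the 4 conditions, in the same order. Of 10 immune markers 9, 8, 7 and 4 were lower and 1 was higher in each condition, and their summed TPM, at 21.1 to 1169 in HepOrgs, spanned that of fresh hepatocytes (30.5 to 264). Of 9 mesenchyme markers 1, 2, 2 and 2 were higher and none lower, with a summed TPM of 45.9 to 207 against 4.19 to 20.9. Endothelial markers were lower in all 4 conditions (8 of 8), with a summed TPM of 0.160 to 2.08 against 8.89 to 40.9 in fresh hepatocytes. Of 6 cholangiocyte markers 3, 5, 5 and 5 were higher and none lower, and they summed to 28.1 to 103.9 in HepOrgs and 7.15 to 18.5 in fresh hepatocytes. The part of these cells in the results was not tested.

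Pck1, the cytosolic phosphoenolpyruvate carboxykinase and the classical control point of the route, maps to chromosome 2 (GRCm39, 172994744 to 173001066). The 3 fresh libraries had a TPM of 2689, 1730 and 1236. HM-Wnt HepOrgs had 0.258, 0.438 and 0.0242 at 1 week and 0.337, 0.469 and 0.276 at 2 weeks. MM HepOrgs had 0.937, 1.19 and 0.184 at 1 week and 3.59, 5.98 and 3.18 at 2 weeks. All HepOrg libraries were far below all fresh ones, and MM at 2 weeks was the highest of the HepOrg conditions, without overlap with the other 3. The log2 fold change against fresh hepatocytes was −13.22 (SE 0.99, edgeR adjusted p = 5.28e-07) and −12.90 (0.98, 4.51e-07) in HM-Wnt and −11.69 (0.93, 1.05e-06) and −9.26 (0.85, 3.58e-06) in MM. In pooled counts, fresh hepatocytes had 246167 and HM-Wnt at 1 week 21, a ratio of 13494 after scaling for library size (95% exact Poisson interval 8828 to 21800). MM at 2 weeks had 501 counts and a ratio of 618 (566 to 676). These intervals cover counting error and not the spread between libraries: 12 of the 21 counts and 267 of the 501 came from 1 library.

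The mitochondrial isoenzyme Pck2, from the list of other steps of the route, went the other way. Its TPM was 1.40, 1.88 and 1.06 in fresh hepatocytes and 14.9 to 94.0 in the 12 HepOrg libraries, without overlap. The log2 fold change was 4.31 (SE 0.47, edgeR adjusted p = 1.08e-05), 4.82 (0.48, 4.63e-06), 4.53 (0.48, 1.01e-05) and 4.74 (0.48, 8.54e-06) in HM-Wnt at 1 and 2 weeks and in MM at 1 and 2 weeks. On the exon-length scale fresh hepatocytes held 1640 ± 624 TPM of Pck1 and 0.983 ± 0.281 of Pck2. HM-Wnt HepOrgs at 1 week held 0.197 ± 0.172 of Pck1 and 28.2 ± 16.4 of Pck2, and MM HepOrgs at 2 weeks held 3.43 ± 1.21 of Pck1 and 36.1 ± 10.2 of Pck2 (SD, n = 3). The order of the isoenzymes was thus reversed in the HepOrg libraries.

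**Figure D2:**
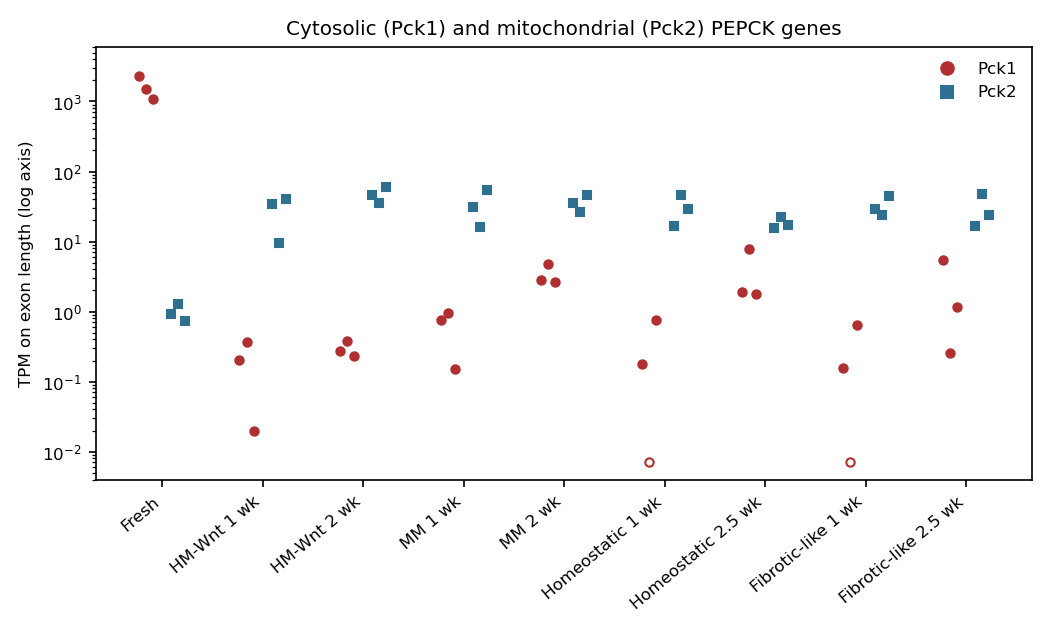
Exon-length TPM of Pck1 and Pck2 in each library on a log axis. Points are libraries and open circles mark 0 counts. Pck1 is the higher in the 3 fresh libraries and Pck2 in all 24 libraries of HepOrgs and assembloids.

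Pcx encodes pyruvate carboxylase, which forms oxaloacetate in mitochondria, and maps to chromosome 19 (4559902 to 4672189). Its TPM was 35.4, 25.7 and 20.0 in fresh hepatocytes, 24.4, 6.14 and 20.4 in HM-Wnt at 1 week and 31.5, 25.3 and 19.9 at 2 weeks. The MM libraries had 31.0, 34.1 and 34.8 at 1 week and 32.9, 23.1 and 19.5 at 2 weeks. The libraries overlapped in all 4 comparisons, and library 2 of HM-Wnt at 1 week was the lowest. Pcx passed the test only in HM-Wnt at 1 week, with a log2 fold change of −1.27 (SE 0.39, edgeR adjusted p = 0.0145). That call ended in edgeR without fresh library 1 (adjusted p = 0.0607) or with only the groups compared (0.0549), and in limma on the log2(TPM + 1) scale (0.0961). The value was −0.88 (0.38, 0.0678) in HM-Wnt at 2 weeks, where DESeq2 gave an adjusted p of 0.0431, −0.31 (0.38, 0.53) in MM at 1 week, where it was 0.33 on the log2(TPM + 1) scale, and −0.60 (0.38, 0.23) in MM at 2 weeks.

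Fbp1, the liver fructose bisphosphatase, maps to chromosome 13 (63012567 to 63036263). Its TPM was 429, 367 and 340.3 in fresh hepatocytes, 136.0, 135.9 and 152 in HM-Wnt at 1 week and 138, 144 and 84.5 at 2 weeks. MM HepOrgs had 333, 237 and 332 at 1 week and 419, 433 and 358 at 2 weeks. Both HM-Wnt conditions were below all fresh libraries, MM at 1 week was just below them, and MM at 2 weeks overlapped with them. Fbp1 was 3.86-fold lower in HM-Wnt at 1 week (log2 fold change −1.95, SE 0.27, edgeR adjusted p = 7.67e-05) and 5.38-fold lower at 2 weeks (−2.43, 0.28, 1.29e-05). In MM it was 1.93-fold lower at 1 week (−0.95, 0.27, 0.0114), a call that ended in edgeR without MM library 2 (adjusted p = 0.0504) and in limma on the log2(TPM + 1) scale (0.18). At 2 weeks in MM the log2 fold change was −0.41 (0.26, 0.234), and 0.093 on the log2(TPM + 1) scale.

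Slc37a4, the carrier that brings glucose 6-phosphate into the endoplasmic reticulum, maps to chromosome 9 (44308144 to 44314265). Its TPM was 536, 444 and 367 in fresh hepatocytes, 251, 235 and 194 in HM-Wnt at 1 week and 184, 164 and 131 at 2 weeks. The TPM in MM was 308, 227 and 212 at 1 week and 249, 190.2 and 181 at 2 weeks. Every HepOrg library was below every fresh one. Slc37a4 was 2.84-fold lower in HM-Wnt at 1 week (log2 fold change −1.51, SE 0.29, edgeR adjusted p = 0.000856), 4.94-fold at 2 weeks (−2.30, 0.30, 3.47e-05), and in MM 2.70-fold (−1.43, 0.29, 0.00156) and 3.08-fold (−1.62, 0.29, 0.000726).

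Of the amino acid enzymes, Sds, the serine dehydratase that turns serine into pyruvate, maps to chromosome 5 (120614585 to 120621997). Its TPM was 297, 206 and 215 in fresh hepatocytes and between 0 and 0.225 in the 12 HepOrg libraries, 3 of which had no count. Pooled over the 3 libraries of a condition, Sds had 37019 counts in fresh hepatocytes, 4 and 6 in HM-Wnt at 1 and 2 weeks and 13 and 12 in MM. The ratio of fresh hepatocytes to HepOrgs, scaled for library size, was 10654 (95% exact Poisson interval 4161 to 39103) and 7802 (3584 to 21260) in HM-Wnt. For MM the ratio was 4277 (2501 to 8033) at 1 week and 3878 (2220 to 7507) at 2 weeks. Sds passed the test in all 4 conditions, with edgeR adjusted p from 6.66e-08 to 1.34e-07. With at most 10 counts in any HepOrg library, it passed the count filter of that fit only through the fresh libraries.

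Gpt, the cytosolic alanine aminotransferase that turns alanine into pyruvate, maps to chromosome 15 (76579616 to 76583890). Its TPM was 416, 489 and 354 in fresh hepatocytes, 46.0, 31.2 and 45.6 in HM-Wnt at 1 week and 44.7, 50.3 and 61.7 at 2 weeks. MM libraries reached 97.4, 141 and 120.1 at 1 week and 117, 145 and 110.3 at 2 weeks. Fresh hepatocytes, MM and HM-Wnt formed 3 levels that did not overlap. Gpt was 15.1-fold lower in HM-Wnt at 1 week (log2 fold change −3.92, SE 0.24, edgeR adjusted p = 1.01e-07) and 14.4-fold lower at 2 weeks (−3.85, 0.23, 1.01e-07). The gene was 5.42-fold (−2.44, 0.22, 2.84e-06) and 4.83-fold (−2.27, 0.22, 5.22e-06) lower in MM.

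Got1, the cytosolic aspartate aminotransferase of the malate-aspartate shuttle, maps to chromosome 19 (43488188 to 43513674). Its TPM was 19.6, 31.7 and 27.3 in fresh hepatocytes, 23.9, 14.9 and 29.0 in HM-Wnt at 1 week and 35.7, 32.2 and 41.1 at 2 weeks. The TPM in MM was 15.5, 17.1 and 50.7 at 1 week and 16.7, 20.4 and 35.3 at 2 weeks. Library 3 was the highest in each of the 4 HepOrg conditions. Only HM-Wnt at 2 weeks did not overlap with fresh hepatocytes, and its TPM lay above theirs, although the edgeR value of that comparison was negative. The log2 fold change was −0.79 (SE 0.33, edgeR adjusted p = 0.0649), −0.37 (0.33, 0.372), −0.65 (0.33, 0.133) and −0.67 (0.33, 0.126) in HM-Wnt and then MM at 1 and 2 weeks. On the log2(TPM + 1) scale the second of these, HM-Wnt at 2 weeks, was 0.48. Without fresh library 1 the first passed the test in edgeR (−0.96, adjusted p = 0.0465), and without MM library 3 the value of MM at 1 week was −1.16 (0.00799).

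Ppargc1a encodes a transcriptional coactivator that drives gluconeogenic genes in fasting, and maps to chromosome 5 (51611592 to 51725068). Its TPM was 0.593, 0.494 and 0.304 in fresh hepatocytes, 0.122, 0.106 and 0.0689 in HM-Wnt at 1 week and 0.0672, 0.0934 and 0.149 at 2 weeks. MM libraries had 0.0945, 0.109 and 0.130 at 1 week and 0.0646, 0.0467 and 0.171 at 2 weeks. The gene was low throughout, and every HepOrg library was below every fresh one. The log2 fold change was −2.72 (SE 0.44, edgeR adjusted p = 0.00023) and −2.98 (0.44, 0.000106) in HM-Wnt and −2.66 (0.43, 0.000345) and −2.84 (0.44, 0.000243) in MM.

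**Figure D3:**
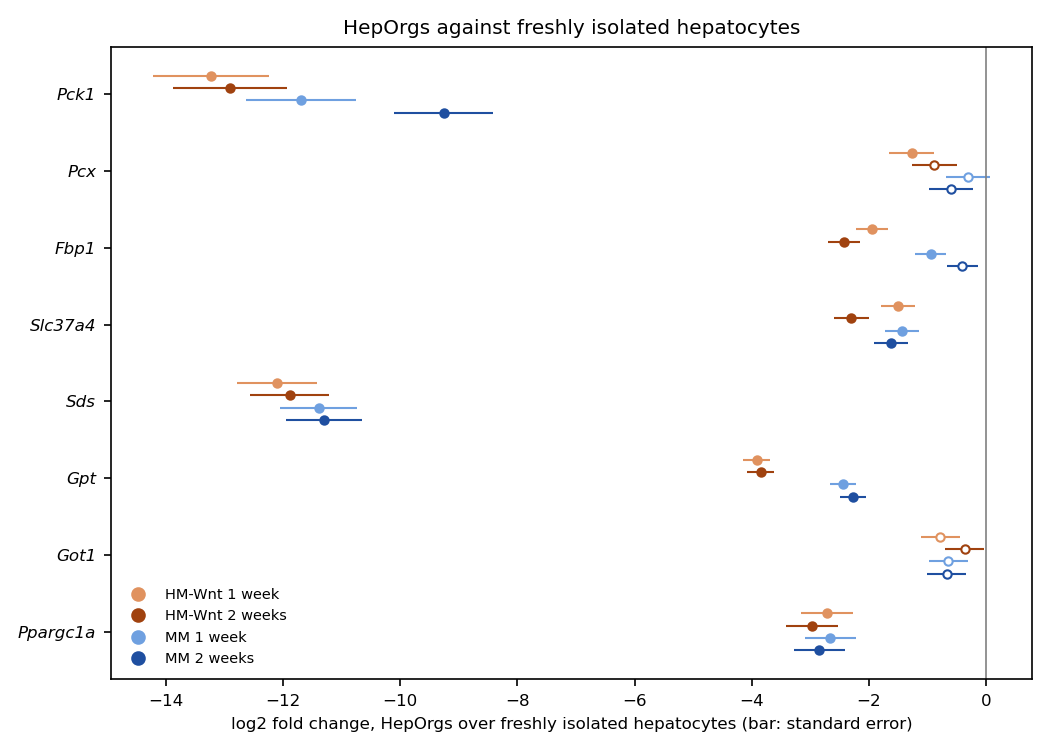
Log2 fold change of the 8 genes in HepOrgs over fresh hepatocytes, by condition, with bars of 1 approximate SE derived from the edgeR test. Filled symbols have an adjusted p under 0.05 and open symbols do not. Pck1 and Sds lie between −13.22 and −9.26, Gpt between −3.92 and −2.27, and Got1 is open in all 4 conditions.

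The medium comparison asked how HepOrgs in MM differed from HepOrgs left in HM-Wnt. Gpt was higher in MM at both times, Fbp1 and Pck1 were higher at 2 weeks, and no gene of the 8 was lower. At 1 week 1 of the 7 genes tested was higher (of 12989 genes tested, 1.76% were higher and 1.22% lower), and at 2 weeks 3 of 7 (6.84% and 4.61%). These counts are from the fit without the replicate number, although the HepOrg libraries appear paired by it. With that number as a block, Fbp1 also passed at 1 week and Slc37a4 at 2 weeks. Of all 12989 genes the block called 730 higher and 502 lower at 1 week, and 1427 and 1117 at 2 weeks. On the log2(TPM + 1) scale, which tested 9439 genes and moved the median of genes tested by 0.09 and −0.24, the genes called were 256 higher and 77 lower at 1 week and 387 and 862 at 2 weeks. In edgeR, with 12989 tested, they were 229 and 158, and 889 and 599. Sds had too few counts to be tested. Gpt was 2.76-fold higher at 1 week (log2 fold change 1.46, SE 0.20, edgeR adjusted p = 0.00662) and 3.01-fold higher at 2 weeks (1.59, 0.20, 0.00115). All 3 MM libraries were above all 3 HM-Wnt libraries at each time.

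Fbp1 did not pass the test at 1 week (0.99, SE 0.28, edgeR adjusted p = 0.0711), although its libraries did not overlap, and was 4.08-fold higher in MM at 2 weeks (2.03, 0.28, 0.00205). The replicate numbers paired the HepOrg libraries, and with the replicate number as a block Fbp1 also passed at 1 week (0.98, 0.23, 0.031). Pck1 was 12.7-fold higher at 2 weeks (3.66, 0.84, 0.0185), in 3 of 3 MM libraries above all of HM-Wnt. Its call ended in edgeR without HM-Wnt library 1 (adjusted p = 0.0749), HM-Wnt library 3 (0.0735) or MM library 2 (0.0691). At 1 week, where MM library 3 lay among the HM-Wnt libraries, the log2 fold change of Pck1 was 1.48 (0.78, 0.282). Even the highest MM library, at 5.98 TPM, was far below the lowest fresh library, at 1236 TPM.

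In the fit without the replicate block, the other genes did not pass the test between media. Slc37a4 had a log2 fold change of 0.06 (SE 0.28, edgeR adjusted p = 0.924) at 1 week and 0.69 (0.28, 0.137) at 2 weeks, and passed at 2 weeks with the replicate block (0.70, 0.15, 0.0114). Pcx had 0.94 (0.39, 0.184) and 0.30 (0.38, 0.668), the latter −0.03 on the log2(TPM + 1) scale. Got1 had 0.13 (0.33, 0.851) and −0.29 (0.33, 0.613), and Ppargc1a 0.04 (0.43, 0.969) and 0.15 (0.43, 0.866). In a fit of all 27 libraries no member passed at either time.

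**Figure D4:**
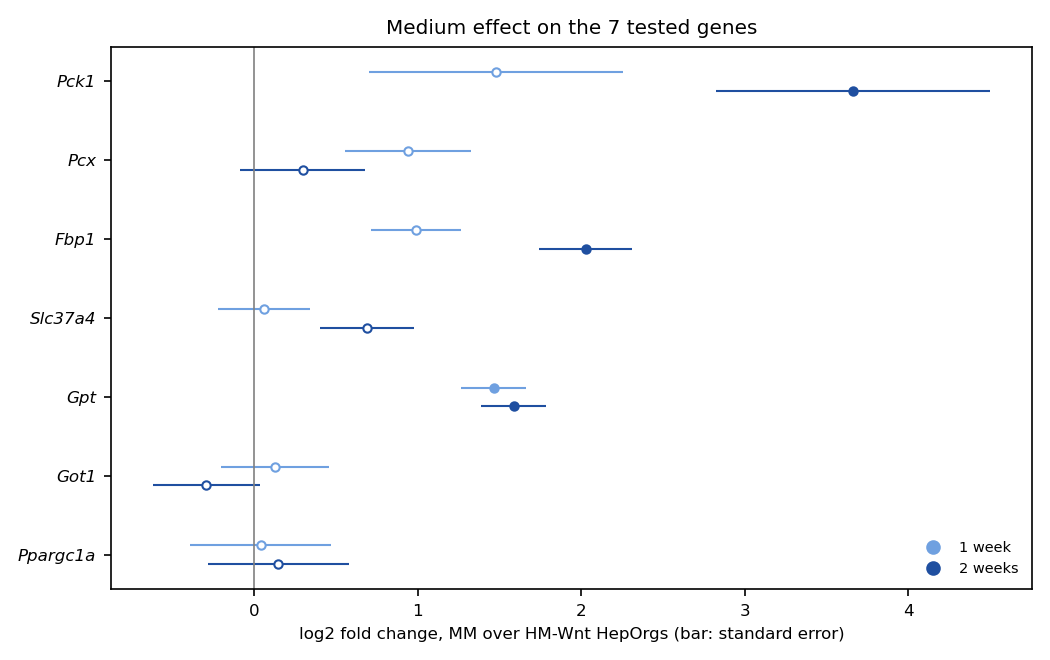
Log2 fold change of MM over HM-Wnt HepOrgs at 1 and 2 weeks for the 7 genes tested, in the fit without the replicate block. Bars are 1 approximate SE, derived from the edgeR test. Filled symbols have an adjusted p under 0.05. Gpt is filled at both times (1.46 and 1.59), and Fbp1 (2.03) and Pck1 (3.66) at 2 weeks only.

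Whether the effect of the medium changed with time was tested by the interaction, and no gene of the 8 passed it. Of all 12989 genes none passed in edgeR, and 951 had an unadjusted p under 0.05, among them 1 of the 7 members tested. DESeq2 called none of the 8. The change from 1 to 2 weeks was 2.19 (SE 1.21) for Pck1, 1.04 (0.39) for Fbp1 and 0.12 (0.27) for Gpt, the last −0.29 on the log2(TPM + 1) scale. A difference between the effects at the 2 times was therefore not shown.

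Within HM-Wnt no gene of the 8 passed the test between 2 weeks and 1 week (0 of 12989 genes passed in edgeR and 1134 had an unadjusted p under 0.05, 1 of them a member, and DESeq2 called no member). In MM no member passed either, of 2 genes that did (0.0154%). Pck1 was the member with the largest change, 5.45-fold higher at 2 weeks of MM with 3 of 3 libraries above all of 1 week (log2 fold change 2.45, SE 0.79, edgeR adjusted p = 0.29). DESeq2 gave it an adjusted p of 0.0463.

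In the assembloids, the mesenchyme ratio was the comparison of interest. With all 12 assembloid libraries no gene of the 8 passed the test between fibrotic-like and homeostatic assembloids at 1 or 2.5 weeks. None of 14253 genes passed in edgeR at either time, while 2012 and 944 genes, with none of the 8, had an unadjusted p under 0.05, and DESeq2 called none of the 8. On the log2(TPM + 1) scale, with 10734 genes tested, the median of genes tested moved by 0.67 and 0.38, and 733 genes were called higher and 2 lower at 1 week. Without homeostatic 1-week library 2, a choice made after seeing the data, Fbp1, Pcx and Slc37a4 were lower in fibrotic-like assembloids at 1 week (3 of 8, where 4.87% of 14746 genes tested were lower). At 2.5 weeks again none of the 8 passed in edgeR, where 0.258% of genes did, and 1 of the 8 and 3139 genes had an unadjusted p under 0.05. The change of the ratio effect between the times passed for no gene in edgeR with or without that library (278 and 505 genes, with none of the 8, at an unadjusted p under 0.05), and DESeq2 called none of the 8.

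Fbp1 had a TPM of 452, 2.97 and 349 in homeostatic assembloids at 1 week and 59.9, 109 and 76.3 in fibrotic-like ones. Library 2 aside, the homeostatic libraries were well above the fibrotic-like ones. The log2 fold change of fibrotic-like over homeostatic was −2.78 (SE 1.32, edgeR adjusted p = 0.377) with all libraries and −3.36 (0.73, 0.0442) without library 2, or 10.3-fold lower. At 2.5 weeks the TPM was 319, 363 and 485 in homeostatic and 263, 63.9 and 223 in fibrotic-like assembloids. The 3 fibrotic-like libraries were again the lower ones, without overlap, but the difference of −1.50 did not pass the test (0.65, 0.223 without library 2).

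Slc37a4 had a TPM of 348, 0 and 211 in homeostatic assembloids at 1 week and 103, 115 and 80.7 in fibrotic-like ones. Its log2 fold change was −1.99 (SE 1.68, edgeR adjusted p = 0.649) with all libraries and −2.57 (0.67, 0.048) without library 2. On the log2(TPM + 1) scale with all libraries the value was 1.24. Fibrotic-like libraries were lower only against homeostatic libraries 1 and 3. At 2.5 weeks the TPM of 251, 215 and 303 in homeostatic assembloids overlapped with 228, 75.7 and 257 in fibrotic-like ones.

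Pcx had a TPM of 18.6, 0 and 11.6 in homeostatic assembloids at 1 week and 4.63, 10.9 and 4.18 in fibrotic-like ones. Its log2 fold change was −1.67 (SE 1.63, edgeR adjusted p = 0.701) with all libraries, 0.16 on the log2(TPM + 1) scale, and −2.25 (0.58, 0.0474) without library 2. At 2.5 weeks the homeostatic libraries, at 13.3, 19.4 and 20.0, were just above the fibrotic-like ones, at 11.4, 11.5 and 12.5, and the difference of −1.12 did not pass (0.52, 0.249 without library 2).

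Pck1 and Sds stayed at trace levels in assembloids of both kinds. The TPM of Pck1 was 0.231, 0 and 0.971 in homeostatic assembloids at 1 week, 2.42, 9.71 and 2.25 at 2.5 weeks, 0.190, 0 and 0.781 in fibrotic-like ones at 1 week and 6.75, 0.314 and 1.46 at 2.5 weeks. The highest values were thus at 2.5 weeks in both kinds, with overlap between the kinds and, in fibrotic-like assembloids, between the times. The log2 fold change from 1 to 2.5 weeks was 3.66 (SE 1.81, edgeR adjusted p = 0.787) in homeostatic and 3.83 (1.76, adjusted p of 1) in fibrotic-like assembloids, and neither passed. Without library 2 these values were 3.11 (1.58, adjusted p of 1) and 3.83 (1.35, 0.469). Sds was at most 1.10 TPM in any assembloid library. No member passed from 1 to 2.5 weeks in either kind. Of all genes none passed in edgeR with or without library 2, and DESeq2 called no member. Unadjusted p under 0.05 was found for 936 genes in homeostatic and 122 in fibrotic-like assembloids with all libraries, with no member among them. Without library 2 it was found for 216 genes in homeostatic assembloids, with no member, and for 1553 in fibrotic-like ones. The latter included 4 of the 8 members, Pck1, Fbp1, Slc37a4 and Pcx, all with the higher value at 2.5 weeks and an edgeR adjusted p of 0.469.

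Gpt, Got1 and Ppargc1a did not pass between the ratios with or without library 2. Gpt lay between 20.5 and 119.9 TPM in the assembloids outside library 2, and fibrotic-like over homeostatic was −1.17 (SE 0.75, edgeR adjusted p = 0.286) at 1 week and −0.35 (0.68, 0.778) at 2.5 weeks without library 2. Both directions turned on the log2(TPM + 1) scale with all libraries (1.65 and 0.15). Got1 had −0.35 (0.31, 0.437) and −0.33 (0.28, 0.496) without library 2, 0.23 at 1 week with it, and 0.26 at 2.5 weeks on the log2(TPM + 1) scale. Ppargc1a, at most 0.263 TPM, had 0.01 (1.27, 0.996) and −0.90 (1.14, 0.654).

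**Figure D5:**
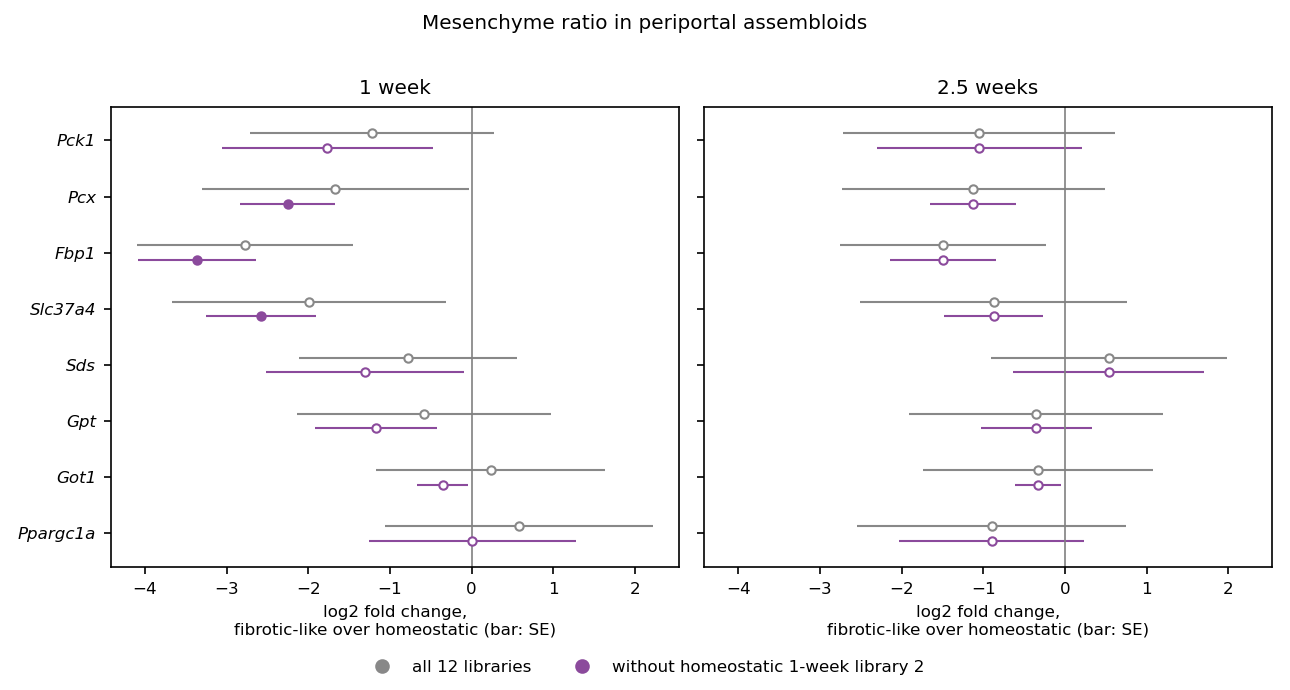
Log2 fold change of fibrotic-like over homeostatic assembloids at 1 and 2.5 weeks, with all 12 libraries (grey) and without homeostatic 1-week library 2 (purple). Bars are 1 approximate SE derived from the edgeR test, and filled symbols have an adjusted p under 0.05. Fbp1, Slc37a4 and Pcx are filled at 1 week without that library (−3.36, −2.57 and −2.25), and no symbol is filled with all libraries.

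Markers of the cells in an assembloid moved with these values. The 10 hepatocyte markers summed to 13471 to 63436 TPM in fibrotic-like assembloids at 1 week and to 103534 and 66852 in homeostatic libraries 1 and 3. Their median log2 fold change was −2.10 without library 2, and 0 of the 10 passed in edgeR. The 9 mesenchyme markers had a median of 3.01, with 1 of 9 higher, and summed to 1483 to 2929 TPM against 56.6 and 306 in homeostatic libraries 1 and 3. Cholangiocyte markers had a median of 2.61, with 1 of 6 higher. The part of the share of hepatocyte RNA in the values of the 8 genes was not tested.

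Against MM HepOrgs of the same age of 1 week, none of the 7 members tested (Sds was too low) passed the test in homeostatic or fibrotic-like assembloids when all libraries were used. None of 13733 genes passed in edgeR, 976 and 1512 had an unadjusted p under 0.05, with no member among them, and DESeq2 called none of the 8. Fibrotic-like assembloids then had log2 fold changes of −3.18 for Pcx (SE 1.93, edgeR adjusted p = 0.608), −2.77 for Fbp1 (1.34, 0.499) and −2.22 for Slc37a4 (1.83, 0.775). Without library 2, they were lower in Pcx (log2 fold change −3.19, SE 0.58, edgeR adjusted p = 0.0155), Fbp1 (−2.78, 0.45, 0.0131) and Slc37a4 (−2.23, 0.48, 0.0215), 3 of 8 genes, where 10.3% of 14308 genes were lower. For homeostatic assembloids none of the 14308 genes passed in edgeR, and 1488, with none of the 8, had an unadjusted p under 0.05. There Fbp1 had 0.58 (0.46, 0.692), Slc37a4 0.34 (0.51, 0.855) and Pcx −0.94 (0.62, 0.625), against −0.0046, −0.25 and −1.53 with all libraries. In the fibrotic-like comparison 8 of 9 mesenchyme markers and 4 of 6 cholangiocyte markers were higher and 1 of 10 hepatocyte markers was lower, and their part in the result was not tested.

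Against fresh hepatocytes, Pck1 and Sds were lower in each of the 4 assembloid conditions, and with all libraries no other member passed. The share of genes tested that were lower was 3.84% and 1.78% in homeostatic and 7.42% and 3.90% in fibrotic-like assembloids at 1 and 2.5 weeks. The pooled ratio of fresh hepatocytes to assembloids for Pck1 was 7205 (95% exact Poisson interval 5536 to 9565) and 542 (502 to 586) in homeostatic and 20472 (14422 to 30130) and 1262 (1136 to 1405) in fibrotic-like assembloids at 1 and 2.5 weeks. For Sds it was 1296 (971 to 1770), 956 (736 to 1266), 2579 (1871 to 3664) and 716 (584 to 887) in the same order. The intervals leave out the spread between libraries, and single libraries held most of many pooled counts. At 1 week 45 of 55 counts of Pck1 and 44 of 46 of Sds in homeostatic assembloids were from library 3, and library 2 had none of either. In fibrotic-like assembloids 29 of 37 counts of Sds at 1 week and 269 of 351 of Pck1 at 2.5 weeks were from library 1. The edgeR adjusted p of Pck1 was 0.00427, 0.0185, 0.00188 and 0.00727 and that of Sds 0.00369, 0.00595, 0.00178 and 0.00479. On the log2(TPM + 1) scale the split of genes called at 1 and 2.5 weeks in fibrotic-like assembloids was 5653 higher and 546 lower and 2202 and 354, against 1648 and 1075 and 1177 and 565 in edgeR. The former tested 10912 genes and edgeR 14489. Pck2 was higher in all 4 conditions, by 3.54 to 4.13 on the log2 scale. With only the 6 libraries of the comparison in the fit, homeostatic assembloids at 1 week kept none of these calls (edgeR adjusted p = 0.175 for Pck1, 0.186 for Sds and 0.132 for Pck2). The call of Pck1 at 2.5 weeks in homeostatic assembloids also ended in edgeR when any 1 of their libraries was left out (adjusted p = 0.0981, 0.0675 and 0.0906). Pck2 was highest in the Krt19-high libraries: homeostatic 1-week library 2 (TPM 68.5) and fibrotic-like library 3 at 1 week (70.7) and library 2 at 2.5 weeks (74.3). The other assembloid libraries had 25.4 to 46.5. The part of cells other than hepatocytes in the Pck2 of assembloids was not tested.

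Without library 2, the log2 fold change in homeostatic assembloids at 1 week was −12.17 for Pck1 (SE 1.97, edgeR adjusted p = 0.00154) and −9.74 for Sds (1.37, 0.000666). Pck2 was then higher by 3.55 to 4.09 on the log2 scale in the 4 conditions. Gpt and Got1 were also lower in homeostatic assembloids, which made 4 of 8 genes at each time (9.55% and 12.4% of genes were lower), and all 8 were lower in fibrotic-like assembloids at each time (23.1% and 18.3%). In the same fit 7 of 10 hepatocyte markers were lower in fibrotic-like assembloids at 1 week (median log2 fold change −2.69) and 4 at 2.5 weeks (−1.74), against 1 (−1.12) and 2 (−1.16) in homeostatic ones. All 6 cholangiocyte markers and 8 of 9 mesenchyme markers were higher in fibrotic-like assembloids at each time. In homeostatic ones 5 of 6 cholangiocyte markers were higher at each time, and 4 and 3 of 9 mesenchyme markers. The part of these cells in the values of the 8 genes was not tested. Fbp1 in homeostatic assembloids had a log2 fold change of −0.36 (SE 0.66, edgeR adjusted p = 0.739) at 1 week and −0.39 (0.59, 0.659) at 2.5 weeks, or 0.075 and 0.023 on the log2(TPM + 1) scale. In fibrotic-like assembloids Fbp1 was 13.1-fold lower at 1 week (−3.72, 0.65, 0.000708) and 3.69-fold lower at 2.5 weeks (−1.89, 0.61, 0.0267), where with all libraries the adjusted p was 0.0584 and 0.347. Got1 was 3.05-fold and 2.88-fold lower in homeostatic assembloids (edgeR adjusted p = 0.00738 and 0.00367) and Gpt 5.91-fold and 7.04-fold (0.0356 and 0.0102).

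In the order of mean TPM over the 9 conditions, with all libraries, most neighbours overlapped. For Pck1, Sds, Gpt, Slc37a4 and Ppargc1a fresh hepatocytes came first and did not overlap with the next condition. Among cultures, Pck1 was highest in homeostatic assembloids at 2.5 weeks (4.79 TPM) and MM HepOrgs at 2 weeks (4.25), whose libraries overlapped. Fbp1 was highest in MM HepOrgs at 2 weeks (403 TPM), followed by homeostatic assembloids at 2.5 weeks (389) and fresh hepatocytes (379), all overlapping. Slc37a4 separated only fresh hepatocytes from the rest and HM-Wnt at 2 weeks from fibrotic-like assembloids at 1 week. For Pcx and Got1 no neighbours were apart.

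Other genes of the route were taken from lists of its other enzymes, carriers and regulators. Of 22 other steps tested, 7 were higher and 10 lower in HM-Wnt at 1 week and 9 higher and 6 lower in MM at 2 weeks, against fresh hepatocytes. Of all genes tested 24.9% were higher and 24.8% lower in the former and 19.7% and 20.0% in the latter. The shares were 26.1% and 25.7% in HM-Wnt at 2 weeks and 21.5% and 21.3% in MM at 1 week, and they are the background of the list counts against fresh hepatocytes. Slc2a2, the glucose transporter of the hepatocyte membrane, was lower by a log2 fold change of −8.35 (SE 0.79) and −8.75 (0.81) in HM-Wnt and −3.00 (0.62) and −2.19 (0.60) in MM. In MM over HM-Wnt Slc2a2 was higher by 5.32 (SE 0.73, edgeR adjusted p = 0.00732) at 1 week and 6.57 (0.78, 0.000958) at 2 weeks. In that comparison 2 of the 22 steps were higher at 1 week and 7 at 2 weeks (1.76% and 6.84% of all genes), and none was lower.

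Genes that bring substrates into the route were mostly lower in HepOrgs: 12 of 19 in HM-Wnt at 1 week, 13 at 2 weeks and 12 of 19 in MM at both times, with 2, 1, 1 and 2 higher. Agxt, which makes pyruvate and glycine from alanine and glyoxylate, had a log2 fold change of −9.45 (SE 0.72) in HM-Wnt at 1 week and −7.98 (0.67) in MM at 2 weeks. In the same conditions Gls2, the liver glutaminase, had −7.27 (0.54) and −7.75 (0.55), and the amino acid transporter Slc38a4 had −9.40 (1.08) and −6.31 (0.95). Tat, the tyrosine aminotransferase induced by glucocorticoids, had −5.07 (0.79) and −4.41 (0.77), and all of these passed the test. In MM over HM-Wnt at 2 weeks 5 of the 19 were higher (6.84% of all genes), among them Slc38a4 (4.01, SE 0.93, edgeR adjusted p = 0.0192) and Gpd2 (1.23, 0.16, 0.0013), the mitochondrial glycerol phosphate dehydrogenase. At 1 week only Gpd2 was (0.90, 0.16, 0.0197).

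Of 25 regulators, 16, 17, 16 and 15 were lower and 1, 2, 1 and 1 higher in HM-Wnt at 1 and 2 weeks and MM at 1 and 2 weeks. The glucocorticoid target Klf15, which controls amino acid breakdown, was lower in HM-Wnt at 1 week (log2 fold change −3.34, SE 0.39), as were Cebpa, a factor of hepatocyte metabolism (−3.38, 0.20), and the repressor Nr0b2 (−6.40, 0.51). Pdk4, a kinase that spares pyruvate from oxidation, was higher in MM by 2.73 (0.64) and 3.65 (0.67). Between media at 2 weeks 4 of the 25 were higher in MM, among them Gcgr, the glucagon receptor (1.07, SE 0.27, edgeR adjusted p = 0.0267), and Creb3l3, a fasting-induced factor of the liver (1.44, 0.20, 0.00211).

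Of 9 enzymes and regulators of the opposing glycolytic steps, 3 were higher and 5 lower in HM-Wnt at 1 week and 2 higher and 2 lower in MM at 2 weeks, the latter near the shares of all genes. Pkm, the pyruvate kinase gene used outside hepatocytes, was higher by 6.25 (SE 0.53) in HM-Wnt at 1 week and 5.71 (0.51) in MM at 2 weeks. In MM over HM-Wnt at 2 weeks Pklr, the liver pyruvate kinase, was higher (1.56, SE 0.25, edgeR adjusted p = 0.00354), and Pfkl, the liver phosphofructokinase, was lower (−0.79, 0.22, 0.0419). Genes of both directions of the route were thus among those higher in MM.

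The members also differed in which other genes shared their pattern, as Pearson correlations of log2 CPM over the 27 libraries among 14273 genes. These are descriptions, because libraries of 1 condition share their treatment and homeostatic 1-week library 2 is one of the points. Pck1 was nearest to Sult2a8 (r = 0.933), Car3 (0.922) and Amdhd1 (0.920), and Sds to Hal (0.947), Obp2a (0.941) and Ugt2a3 (0.940). Amdhd1 and Hal encode enzymes of histidine breakdown. Among members, Pck1 and Sds had an r of 0.894 (0.893 without that library), Pcx and Slc37a4 one of 0.963 (0.804), and Fbp1 and Slc37a4 one of 0.916 (0.908). Slc37a4 was nearest to Masp2 (0.996), Gpt to Fmo5 (0.989), Pcx to F12, C4b and Sema4a (0.989 each), Got1 to Lman1 (0.981), Fbp1 to Pnpla8 (0.981) and Ppargc1a to Acvr2b (0.884). Without homeostatic 1-week library 2 the nearest gene was the same for Sds (Hal, 0.959), Slc37a4 (Masp2, 0.980), Gpt (Fmo5, 0.968) and Ppargc1a (Acvr2b, 0.821), and another for Pck1 (Gnmt, 0.940), Pcx (Chdh, 0.971), Fbp1 (Hsd17b4, 0.978) and Got1 (Marchf6, 0.890).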

How the data were processed

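Bulk RNA-seq libraries were made with SMARTseq2. The authors mapped paired-end reads to the mouse genome GRCm39 by STAR, counted them per gene by featureCounts, and deposited 1 table of raw counts with TPM (scaled by the authors for gene length and library size, with a length close to the gene span) for 37 libraries. The 27 libraries named by sample titles were used, and 10 were not used here. Gene names came with the table, and 2 reporter rows were left out of the tests. Positions and exon lengths are from GRCm39 (GENCODE vM39).

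The counts were fitted with edgeR 4.0.16 (quasi-likelihood, TMM) in R 4.3.3, in a fit of HepOrgs and fresh hepatocytes, of HepOrgs alone, of assembloids alone, of assembloids with fresh hepatocytes, and of 1-week assembloids with 1-week MM HepOrgs. Low genes were removed by filterByExpr (per-library minimum 10, summed minimum 15). The prior count was 2, and Benjamini-Hochberg adjustment ran over all genes tested. Group comes from the sample titles. The steps were tested on simulated counts, with a true log2 change of 1 in 100 genes and of 2 in 100 genes. HM-Wnt at 1 week against fresh hepatocytes recovered 33% and 81% of them, and the medium at 1 week 25% and 88%. The mesenchyme ratio at 1 week, without homeostatic 1-week library 2, recovered 0% and 22%. Most true changes of these sizes would thus be missed in that assembloid comparison. Alternatives were DESeq2 1.42.0, limma 3.58.1 on log2(TPM + 1) and log2(TPM + 0.1), other size factors and filters, a log2 fold change limit of 1, other sets of libraries, each library left out, the replicate number as a block, and, chosen after seeing the data, the fits without homeostatic 1-week library 2.

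Pairing was checked by the correlation of deviations from group means. The same number correlated above 0.1 in 18 of 18 pairs of HepOrg libraries (0.127 to 0.503). Different numbers did so in 2 of 36 pairs, so the HepOrg libraries appear paired. This is a hint from the data, since no label explains the numbers. The main results of the medium comparison are from the fit without the replicate number, with the block given beside them. In the other fits not all pairs passed. With fresh hepatocytes 19 of 30 did, against 7 of 60 of different numbers, and for assembloids 6 of 18 against 5 of 36.

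The 8 genes and all lists were chosen with earlier results of these data known. Every member is given by its TPM, and a fold change where it passed, where libraries did not overlap, or for medium, ratio and HepOrg comparisons. From a pathway list at most 4 genes a comparison, those past the threshold with the largest change and an average log2 CPM of at least 3, were eligible to be named, and values of such a gene in other conditions are given beside. The nearest genes by correlation were ranked to 3 per member. The results of some genes of the pathway are not reported here. Intervals of pooled count ratios are exact Poisson at 95%.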

Additional observations from a re-analysis of the deposited data

How the results depend on the processing

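The number of the 8 genes past the threshold was compared under each alternative, and where a call or direction moved, the cause was not tested. Where no number of all genes stands beside a count, the background of that alternative is not given here. Of the values of single genes under alternatives, 1443 kept direction and side of the threshold, 35 lost the call, 60 gained it and 53 turned direction. With all 27 libraries in 1 fit, the counts against fresh hepatocytes were 3 and 3 in HM-Wnt and 2 and 2 in MM, 4 and 6 in homeostatic and fibrotic-like assembloids at 1 week, and 0 and 0 for the medium at 1 and 2 weeks. For the medium at 1 week DESeq2, log2(TPM + 1), log2(TPM + 0.1) and the replicate block each gave 2, and at 2 weeks the block gave 4. The block also called more of all 12989 genes, 730 higher and 502 lower at 1 week and 1427 and 1117 at 2 weeks. Without it these were 229 and 158, and 889 and 599. For MM between times DESeq2 gave 1. Without homeostatic 1-week library 2, the mesenchyme ratio at 1 week gave 3, and 3 with log2(TPM + 1). The block, for which the numbers do not pair the assembloids, gave 0, and with it 0 of all 14746 genes passed. Fibrotic-like assembloids against MM HepOrgs gave 3 with only the groups compared and 3 without that library, with log2(TPM + 1) or the block as well. Against fresh hepatocytes, only the groups compared gave 0 and 7 for homeostatic assembloids at 1 and 2.5 weeks and 8 and 6 for fibrotic-like ones, where DESeq2 gave 6 at 1 week. Without library 2 the counts were 4 and 4 and 8 and 8, with log2(TPM + 1) 4, 4, 6 and 7, and with the block 4, 4, 7 and 8. Ppargc1a, at most 0.593 TPM in any library, was not tested on the TPM scales, so counts on them are of at most 7 genes. Leaving out 1 library gave 1 to 2 for homeostatic assembloids at 2.5 weeks, 2 to 4 at 1 week, 5 to 7 for MM at 1 week, 2 to 3 for the medium at 2 weeks and 0 to 3 for the ratio at 1 week. In HepOrgs against fresh hepatocytes, where 19 of 30 pairs of the same number correlated above 0.1, the replicate block gave 8, 7, 7 and 5. Of all 13405 genes 3493, 3570, 3018 and 2868 were then lower.

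Directions turned as follows, as log2 fold changes with pseudocounts of 1 and 0.1 on TPM. Against fresh hepatocytes Got1 in HM-Wnt at 2 weeks was 0.48 and 0.49, Pcx in MM at 1 week 0.33 and 0.34, Fbp1 in MM at 2 weeks 0.093 and 0.093, and Fbp1 in homeostatic assembloids at 2.5 weeks 0.023 and 0.023 (0.023, and 0.075 at 1 week, also without library 2). Between media at 2 weeks Pcx was −0.030 and −0.032, and the change of the medium effect for Gpt was −0.29 and −0.30 (−0.088 to 0.28 when 1 library was left out). For the ratio at 1 week Pcx was 0.16 and 1.11, Slc37a4 1.24 and 2.34, Gpt 1.65 and 2.74, and Fbp1 0.017 with 0.1. At 2.5 weeks Gpt was 0.15 and 0.15, and Got1 0.26 and 0.28, with 0.15 and 0.26 without library 2. Without library 2 Got1 at 1 week was −0.35, and −0.51 with the block, and Ppargc1a was −0.00079 with the block. Against MM HepOrgs, homeostatic Fbp1 was 0.58, 0.42 on log2(TPM + 1) and 0.60 with the block, and Slc37a4 0.34, 0.14 and 0.33, with ranges of −1.04 to 0.58 and −1.54 to 0.34 when 1 library was left out. Leaving out 1 library gave, for the medium at 1 week, Slc37a4 −0.23 to 0.27, Got1 −0.41 to 0.35 and Ppargc1a −0.19 to 0.21, and Ppargc1a at 2 weeks −0.45 to 0.42. For the ratio it gave Sds −1.64 to 1.50, Gpt −1.17 to 0.51 and Got1 −0.35 to 0.98 at 1 week and Sds −0.19 to 1.01 at 2.5 weeks. 

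The limits are 3 libraries a condition, low counts of Pck1 and Sds in culture, mixed cells in assembloids and unstranded reads over Slc37a4, Pcx and Sds. A member that did not pass is not shown to be equal between groups.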
